A study of Mus musculus with 6 samples.

Results

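The genes described here are those of the autophagy machinery, 39 of the 19938 named genes measured on the arrays. They were taken by symbol: every single-symbol row whose gene name begins with Atg and a digit, Map1lc3, Gabarap, Ulk and a digit, or Wipi, together with Becn1, Sqstm1, Nbr1, Rb1cc1, Pik3c3, Pik3r4, Uvrag, Ambra1, Tfeb and Vmp1. Optn, which the rule also names, was not analysed here. Of genes with several rows (4 of the 39) the brightest row by its mean over the 6 arrays was used.

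RNA came from total epithelial cell preparations of the mouse jejunum, a segment of the small intestine between duodenum and ileum. The transgenic animals (3 arrays) carried R26-M2rtTA, a doxycycline-dependent transcriptional activator expressed from the Rosa26 locus, and a TRE-driven Musashi transgene that this activator switches on. The controls (3 arrays) carried R26-M2rtTA alone. Both groups drank doxycycline for 24 h, so the drug and the activator are common to them, and the activator is not limited to the epithelium by its promoter. No age, sex or strain was given in the labels. The series text names the transgene TRE-Msi1, while the genotype label of the transgenic samples reads MSI2. Msi1 read 12.51, 12.68 and 12.62 log2 units on the transgenic arrays and 6.95, 7.03 and 6.86 on the control arrays. Msi2 read 8.57, 8.08 and 8.01 on the transgenic arrays and 8.59, 8.71 and 8.62 on the control arrays, so Msi1 and not Msi2 was the Musashi gene that separated the groups upward.

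Autophagy encloses cytoplasm, organelles or microbes in a double membrane, the autophagosome, and delivers them to the lysosome. A kinase complex around ULK1 starts the process, a class III PI3-kinase complex marks the membrane, lipid transfer proteins enlarge it, and ubiquitin-like conjugation attaches ATG8 proteins (LC3 and GABARAP) to it, which cargo receptors such as SQSTM1 bind. In the small intestine autophagy genes are known for their part in Paneth cell granules and in defence against invasive bacteria, and ATG16L1 is linked with Crohn's disease in humans. Messenger RNA levels do not measure autophagic flux, since most control of these proteins is by phosphorylation, conjugation and turnover.

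All values are log2 signals after the authors' normalization, and a difference is transgenic minus control, so 1 unit is a doubling. The test was limma's, adjusted over all 19938 genes; passing means an adjusted p under 0.05, and rose and fell are used only of genes that passed. Some lists also have counts at an unadjusted limma p under 0.05. Between 4419 and 5176 of all 19938 genes were under that value. Transgenic replicate 1 stood apart. Across genes it correlated with the 5 remaining arrays at 0.922 to 0.951, while the lowest value between any other pair within a group was 0.995. It lay below all 5 other arrays for 20 of the 39 autophagy genes, where 30.3% of all genes did so, and above all 5 for 5 of them, against 24.3% of all genes. Its position was outside the range of the others for 25 autophagy genes, and for 54.6% of all genes. It was at least 1.5-fold from the mean of transgenic replicates 2 and 3 for 13 autophagy genes, against 22.3% of all genes. Values without this array are therefore given beside those of all 6.

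The cell type markers moved with this array as well. Enterocyte markers, which the labelled cell type should carry, gave signal on every array. The summed signal of 10 such markers, such as Vil1, Alpi and Sis, was 13.76 log2 units on transgenic replicate 1, 15.72 and 15.69 on transgenic replicates 2 and 3, and 15.87 to 15.96 on the control arrays. That of 5 T cell markers was 8.19 on transgenic replicate 1 and 11.23 on both other transgenic arrays, against 11.63 to 12.00 on the controls. The 6 Paneth cell markers summed to 14.67 on transgenic replicate 1 and to 13.07 and 13.00 on the others, against 13.92 to 14.10 on the controls. Summed goblet cell markers (5 genes) ranged from 13.76 to 14.16 in the transgenic group and from 14.30 to 14.41 in the control group, and 1 of them fell. Enteroendocrine markers (6 genes, 2 of which fell) ranged from 10.21 to 10.91 in the transgenic group and from 11.20 to 11.46 in the control group, and crypt stem cell markers (4 genes, 2 of which fell) from 9.39 to 10.51 in the transgenic group and from 11.79 to 12.14 in the control group. Of all genes, 5.84% passed as lower with 6 arrays. The brightest crypt stem cell marker was Olfm4, with a control mean of 11.69. On transgenic replicate 1, Lgr5 (8.56) and Smoc2 (9.31) lay above every control (up to 7.87 and 8.55), and Olfm4 and Ascl2 lay below. All 4 lay below the controls on transgenic replicates 2 and 3. The part of these cell types in the results that follow was not tested. In such a preparation fewer cells of a type and less RNA per cell cannot be told apart. Without transgenic replicate 1, where 14.5% of all genes passed as lower, 4 enterocyte, 4 T cell, 6 Paneth cell, 4 crypt stem cell, 3 goblet cell and 2 enteroendocrine markers did so, and 1 enteroendocrine marker (Neurod1) passed as higher. None of the enterocyte, T cell and Paneth cell markers had passed with 6 arrays. None of the 4 tuft cell or 3 B cell markers passed, and 1 B cell marker was lower at an unadjusted p under 0.05. Markers of macrophages, neutrophils, fibroblasts and smooth muscle, and endothelium had list medians between -0.13 and 0.01, and none of their 20 genes passed, with 1 higher (macrophage list) and 1 lower (fibroblast list) at an unadjusted p under 0.05. Without transgenic replicate 1, Itgam of the macrophage list passed as higher (0.71, adjusted p = 4.77e-04) and Dcn of the fibroblast list as lower (-0.59, adjusted p = 0.0209). Neurod1, Itgam and Dcn were singled out after their values were seen.

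Of the 39 autophagy genes, 5 rose (Gabarapl1, Atg101, Atg12, Atg14 and Sqstm1) and 2 fell (Ulk3 and Atg4a), and 32 did not pass. The 7 that passed are 17.9% of the autophagy genes, against 11.9% of all genes. By direction, 6.04% of all genes passed as higher and 5.84% as lower. The median difference over the 39 genes was -0.08, ranging from -0.98 to 1.67, and that over all genes was -0.04. The groups did not overlap for 17 autophagy genes, 8 with the transgenic arrays higher and 9 with them lower, against 34.2% of all genes (16% higher and 18.2% lower). Without transgenic replicate 1, 8 autophagy genes passed as higher and 7 as lower, where 28.6% of all genes passed (14% higher and 14.5% lower). These 15 included all 7 genes found with 6 arrays, each in the same direction. The same held for each of the 2368 genes that passed among all genes, so it does not set the autophagy genes apart. The counts among autophagy genes with any other single array left out were 2 to 4 higher and 0 or 1 lower. In these settings 683 to 1759 of all genes passed, in place of 2368, so fewer calls were found among all genes as well. The plot of differences by role shows each gene with its interval.

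**Figure D1:**
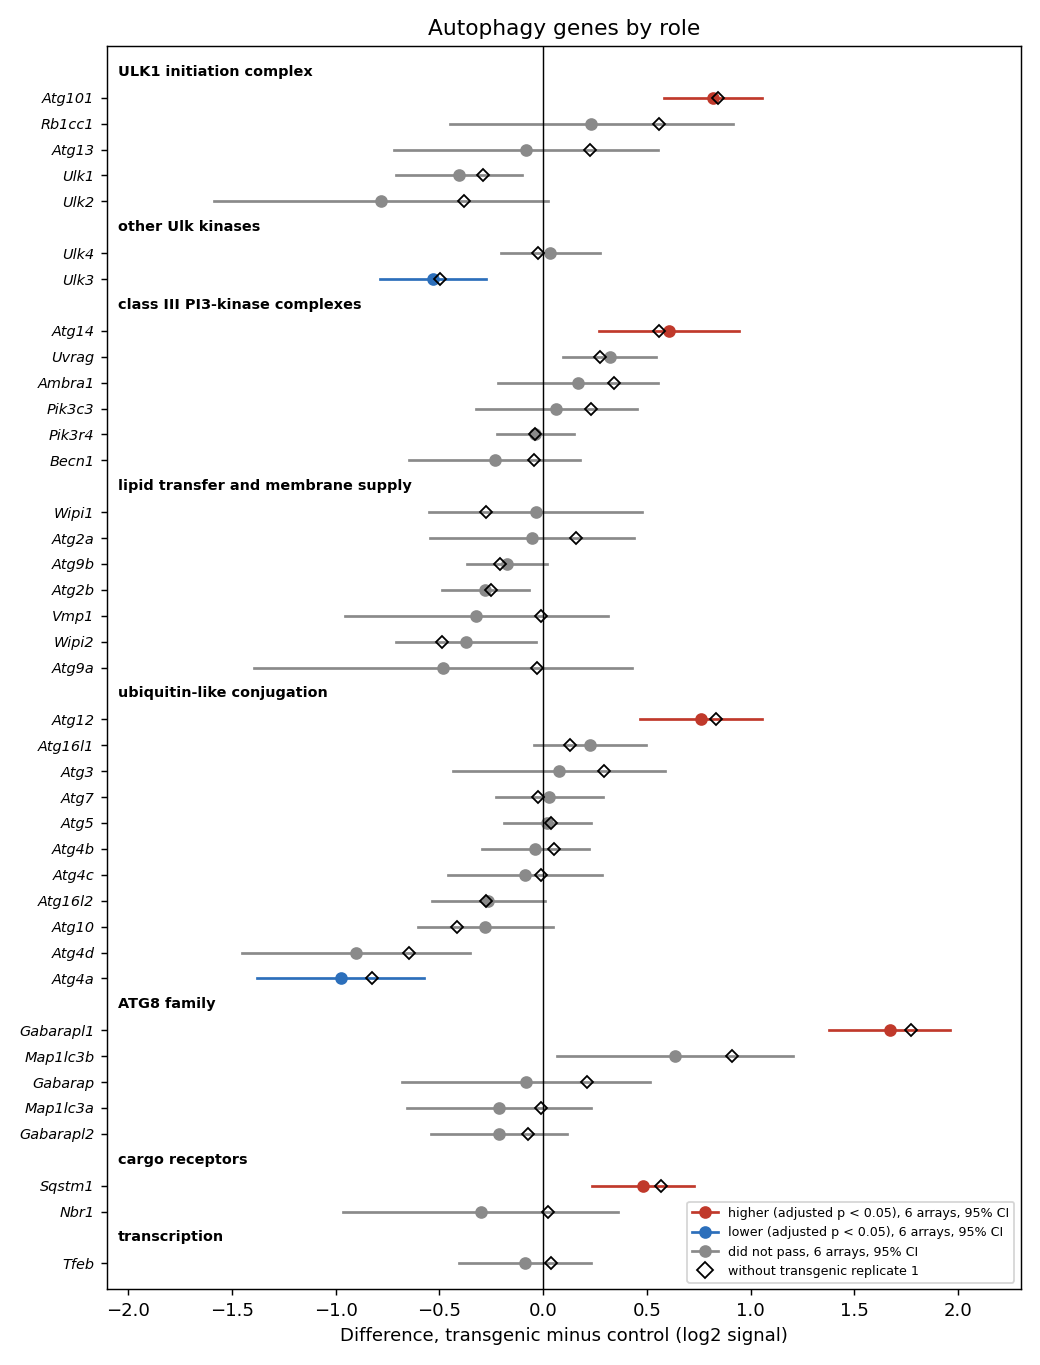
Difference in log2 signal, transgenic minus control (x axis), for 39 autophagy genes grouped by role (y axis). Filled points with bars are the limma difference and its 95% confidence interval on 6 arrays, in red for genes that passed as higher, blue for lower and grey for the rest, and open diamonds are the difference without transgenic replicate 1. Gabarapl1 lies farthest to the right at 1.67 and Atg4a farthest to the left at -0.98.

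In the ULK1 complex, which receives the signals of nutrient and energy sensors, 1 of 5 genes rose (20%, where 11.9% of all genes passed) and 4 did not pass. Atg101, the subunit that stabilises ATG13, read 8.36, 8.34 and 8.53 on the transgenic arrays, against 7.70, 7.59 and 7.50 on the controls (row 10427045). Every transgenic array lay above every control, and transgenic replicate 1 lay with the others. Atg101 rose by 0.82 (SE 0.0968, limma adjusted p = 0.00588, 1.76-fold), and it passed with each array left out in turn. Rb1cc1, the scaffold also called FIP200, read 8.08, 9.17 and 8.93 on the transgenic arrays and 8.60, 8.38 and 8.50 on the controls. It was highest on transgenic replicates 2 and 3 and lowest on transgenic replicate 1, with a difference of 0.23 that did not pass (adjusted p = 0.699), and 0.56 without replicate 1 (adjusted p = 0.00469).

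The kinases themselves did not pass. Ulk1 read 7.22, 7.54 and 7.60 on the transgenic arrays and 7.96, 7.84 and 7.77 on the controls, without overlap. Its difference of -0.41 did not pass (SE 0.125, adjusted p = 0.0993), and was -0.29 without transgenic replicate 1 (adjusted p = 0.0441). Its close relative Ulk2 read 6.58, 7.85 and 7.68 on the transgenic arrays and 8.22, 8.11 and 8.13 on the controls, also without overlap, with transgenic replicate 1 the lowest by more than 1 unit. The difference for Ulk2 was -0.78 (adjusted p = 0.213), and -0.38 without that array (adjusted p = 0.014). Atg13, the regulatory subunit that binds ATG101, differed by -0.08 with a 95% confidence interval of -0.72 to 0.55.

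Of the further Ulk kinases in the list, Ulk3 is best known from Hedgehog signalling and Ulk4 is a predicted pseudokinase. Ulk3 read 6.95, 6.93 and 7.18 on the transgenic arrays, against 7.63, 7.57 and 7.45 on the controls. All 3 transgenic values were lower, and Ulk3 fell by 0.53 (SE 0.105, adjusted p = 0.0265). That call was lost on dropping transgenic replicate 2 or any of the 3 controls (adjusted p up to 0.125). Ulk4 differed by 0.04 (interval -0.20 to 0.27).

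Among the 6 class III PI3-kinase genes, 1 rose (16.7%, where 11.9% of all genes passed) and 5 did not pass. Atg14, which targets the complex to the forming autophagosome, read 8.48, 8.47 and 8.19 on the transgenic arrays and 7.93, 7.55 and 7.85 on the controls. The groups did not overlap, with 1 transgenic value nearer to the controls. Atg14 rose by 0.60 (SE 0.138, adjusted p = 0.0416, 1.52-fold). Dropping transgenic replicate 2 or any control ended this call (up to 0.129), and the difference was 0.56 without transgenic replicate 1 (adjusted p = 0.015).

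Uvrag, which takes the place of ATG14 in the endosomal form of the complex, read 8.25, 8.17 and 8.05 on the transgenic arrays, against 7.92, 7.76 and 7.84 on the controls. The groups did not overlap, but the difference of 0.32 did not pass (SE 0.0917, adjusted p = 0.0811, and 0.0565 without transgenic replicate 1). Ambra1, a regulator of Beclin 1, differed by 0.17 (adjusted p = 0.607), and by 0.34 without transgenic replicate 1 (adjusted p = 0.0171). The lipid kinase Pik3c3 differed by 0.06 (interval -0.33 to 0.45), its partner Pik3r4 by -0.04 (interval -0.22 to 0.15) and the scaffold Becn1 by -0.23 (interval -0.65 to 0.18). Becn1 read 9.10 on transgenic replicate 1 and 9.65 and 9.69 on the other transgenic arrays, against 9.68 to 9.75 on the controls, and its difference was -0.04 without replicate 1.

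The promoter of Atg14 is shown because it was the only promoter, among the genes that passed and were found in the promoter table, to hold 1 of the motifs searched. It spans chr14:47568385-47568684 on the minus strand (RefSeq, GRCm38.p6), from 250 bases before the annotated start to 50 after it. The capitals mark the E-box core CACGTG, the centre of the element bound by TFEB and its relatives, which begins at base 250 of the window.
Atg14: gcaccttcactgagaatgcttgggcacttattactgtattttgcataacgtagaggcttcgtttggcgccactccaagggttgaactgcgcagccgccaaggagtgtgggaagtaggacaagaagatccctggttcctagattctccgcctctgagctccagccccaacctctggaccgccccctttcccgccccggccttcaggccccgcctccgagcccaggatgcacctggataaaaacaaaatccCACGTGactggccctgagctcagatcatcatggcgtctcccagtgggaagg

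None of the 7 genes for lipid transfer and membrane supply passed in limma's test, and 2 (Wipi2 and Atg2b, both lower) had an unadjusted p under 0.05. Wipi2, which binds the lipid made by the PI3-kinase and recruits the conjugation machinery, read 8.73, 8.40 and 8.34 on the transgenic arrays and 9.03, 8.79 and 8.76 on the controls, with no overlap. Its difference was -0.37 (adjusted p = 0.16), and -0.49 without transgenic replicate 1 (adjusted p = 0.00848). Wipi1 read 7.40 on transgenic replicate 1 but 6.80 and 6.58 on transgenic replicates 2 and 3, against 6.92 to 7.02 on the controls. The transgenic arrays thus lay on both sides of the controls, and the difference was -0.04 (interval -0.55 to 0.48).

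Atg9a encodes the membrane protein of the vesicles that seed the autophagosome. It read 8.17, 9.53 and 9.53 on the transgenic arrays and 9.61, 9.62 and 9.45 on the controls. Transgenic replicate 1 was low and the other 2 transgenic arrays lay within the range of the controls, and the difference was -0.48 (adjusted p = 0.519), or -0.03 without that array. Vmp1, a lipid scramblase of the endoplasmic reticulum, had the same shape, with 10.23, 11.18 and 11.14 on the transgenic arrays against 11.22, 11.15 and 11.14 on the controls. The lipid transfer proteins Atg2a and Atg2b differed by -0.05 and -0.28 (adjusted p = 0.917 and 0.1), and Atg9b by -0.17 (adjusted p = 0.254). A second row of Atg2b differed by -0.35.

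In the conjugation system, which joins ATG12 to ATG5 and ATG8 proteins to lipid, 1 of 11 genes rose and 1 fell (18.2%, against 11.9% of all genes). Atg12, the ubiquitin-like protein itself, read 9.41, 9.65 and 9.61 on the transgenic arrays and 8.99, 8.66 and 8.74 on the controls. All transgenic values were higher, and Atg12 rose by 0.76 (SE 0.122, adjusted p = 0.0143, 1.69-fold). Without transgenic replicate 2 or control replicate 2 or 3 it did not pass (up to 0.0702), and without transgenic replicate 1 the difference was 0.83 (adjusted p = 7.61e-04).

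The enzymes and partners around ATG12 showed small differences. Atg5, its conjugation partner, differed by 0.02 (interval -0.19 to 0.23), and the E1-like enzyme Atg7 by 0.03 (interval -0.23 to 0.29). The E2-like enzymes Atg3 and Atg10 differed by 0.08 (interval -0.43 to 0.59) and -0.28 (interval -0.60 to 0.05). Atg10 was -0.41 without transgenic replicate 1 (adjusted p = 0.00745). Atg16l1, which places the conjugation machinery on the membrane, read 8.19, 7.93 and 7.86 on the transgenic arrays, against 7.80, 7.69 and 7.81 on the controls. The groups did not overlap but lay close together, and the difference of 0.23 did not pass (interval -0.04 to 0.50, adjusted p = 0.28). Its paralog Atg16l2 differed by -0.26 (adjusted p = 0.218).

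The ATG4 proteases, which trim ATG8 proteins before conjugation and later release them from lipid, were not alike. Atg4a, known for its preference for GABARAP proteins, read 7.32, 7.94 and 7.61 on the transgenic arrays and 8.69, 8.60 and 8.51 on the controls (row 10500802). The highest transgenic value was below the lowest control, and Atg4a fell by 0.98 (SE 0.166, adjusted p = 0.0169, 1.97-fold lower). Dropping transgenic replicate 3 or any control ended the call (up to 0.0872), and the difference was -0.82 without transgenic replicate 1 (adjusted p = 0.00101). A second row of Atg4a (10602090) differed by -0.84 (adjusted p = 0.0271 among all rows). RefSeq lists a pseudogene, Atg4a-ps, and both rows carry the same accessions, so signal from the gene and from the pseudogene cannot be told apart here.

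Atg4d read 7.70, 8.46 and 8.46 on the transgenic arrays, against 9.18, 9.21 and 8.93 on the controls. All transgenic values were lower and transgenic replicate 1 was lowest. Its difference of -0.90 did not pass with 6 arrays (SE 0.226, adjusted p = 0.0554), and was -0.65 without transgenic replicate 1 (adjusted p = 0.00206). Atg4b, the protease with the broadest action on ATG8 proteins, differed by -0.04 (interval -0.29 to 0.22), and Atg4c by -0.09 (interval -0.46 to 0.28).

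**Figure D2:**
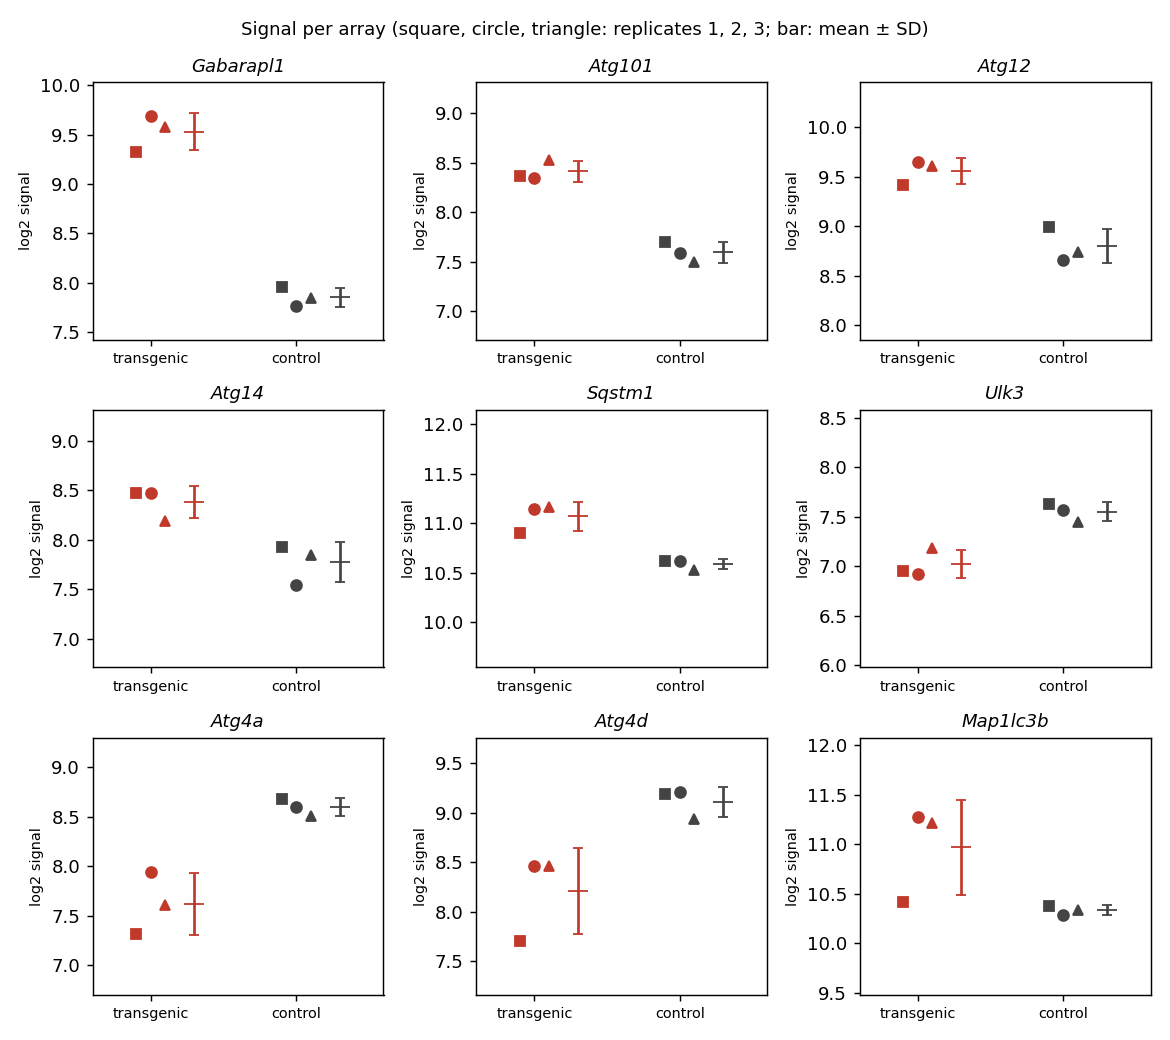
Log2 signal (y axis) on each array for the 7 genes that passed and for Atg4d and Map1lc3b, which passed without transgenic replicate 1, with transgenic arrays in red on the left and control arrays in dark grey on the right of each panel. Squares, circles and triangles are replicates 1, 2 and 3, bars are mean ± SD (n = 3), and every panel spans the same number of log2 units. The groups do not overlap in any panel, and in that of Map1lc3b transgenic replicate 1 lies at 10.42, next to the controls.

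The ATG8 family held the autophagy gene with the largest difference. Gabarapl1, a GABARAP subfamily member, read 9.32, 9.69 and 9.57 on the transgenic arrays, against 7.96, 7.77 and 7.85 on the controls (row 10542200). The lowest transgenic array was more than 1 unit above the highest control. Gabarapl1 rose by 1.67 (SE 0.12, adjusted p = 0.00158, 3.18-fold), and it passed with each array left out, with differences from 1.59 to 1.77.

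Map1lc3b, the LC3 form most used as an autophagosome marker, read 10.42, 11.27 and 11.21 on the transgenic arrays and 10.38, 10.28 and 10.33 on the controls. Transgenic replicates 2 and 3 were high and replicate 1 was next to the controls. With 6 arrays the difference of 0.64 did not pass (SE 0.234, adjusted p = 0.155), and without transgenic replicate 1 it was 0.91 (adjusted p = 1.15e-04). The second Map1lc3b row read 10.32, 11.17 and 11.05 on the transgenic arrays, against 10.24, 10.12 and 10.19 on the controls, with a difference of 0.66. Whether that row reports Map1lc3b alone was not tested.

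The other ATG8 genes did not pass. Gabarap read 11.50, 12.39 and 12.35 on the transgenic arrays and 12.19, 12.09 and 12.19 on the controls, so the transgenic arrays lay on both sides of the controls (difference -0.08, interval -0.68 to 0.52). Map1lc3a differed by -0.21 (adjusted p = 0.565). The 2 rows of Gabarapl2 disagreed. The brighter row (10528546) differed by -0.21 and did not pass (interval -0.54 to 0.12). The dimmer row (10575616) read 5.98, 6.10 and 5.99 on the transgenic arrays, against 5.40, 5.28 and 4.95 on the controls, and was higher by 0.81 (adjusted p = 0.0156 among all rows). RefSeq also lists Gabarapl2-ps, a pseudogene, and which row reports the gene alone was not tested. The mean of both rows differed by 0.30 (adjusted p = 0.185), and no direction is given for this gene.

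The promoters of Gabarapl1 and Atg4a are shown as those of the genes that passed with the largest rise and the largest fall. That of Gabarapl1 spans chr6:129532942-129533241 on the plus strand, and Atg4a has 2 annotated starts, with windows at chrX:140953595-140953894 and chrX:140956657-140956956 on the plus strand (RefSeq, GRCm38.p6). They are printed in lower case throughout because none of the motifs searched occurred in them.
Gabarapl1: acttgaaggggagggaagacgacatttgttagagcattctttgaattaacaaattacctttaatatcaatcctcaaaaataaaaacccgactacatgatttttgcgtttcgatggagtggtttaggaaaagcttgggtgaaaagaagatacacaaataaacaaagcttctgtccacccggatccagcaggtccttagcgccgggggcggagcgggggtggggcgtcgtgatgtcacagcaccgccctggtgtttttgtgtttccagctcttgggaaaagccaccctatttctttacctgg
Atg4a, first window: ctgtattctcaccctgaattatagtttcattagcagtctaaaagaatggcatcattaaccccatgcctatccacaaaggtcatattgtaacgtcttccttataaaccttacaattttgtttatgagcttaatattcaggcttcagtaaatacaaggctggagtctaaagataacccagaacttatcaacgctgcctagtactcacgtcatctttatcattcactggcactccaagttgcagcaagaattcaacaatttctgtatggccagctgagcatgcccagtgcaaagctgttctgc
Atg4a, second window: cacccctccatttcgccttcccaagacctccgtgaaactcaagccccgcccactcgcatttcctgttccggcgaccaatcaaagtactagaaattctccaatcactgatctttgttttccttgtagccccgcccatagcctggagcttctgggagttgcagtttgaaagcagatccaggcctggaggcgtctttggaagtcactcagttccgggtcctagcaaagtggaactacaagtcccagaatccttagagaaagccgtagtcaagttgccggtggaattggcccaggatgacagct

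Promoters of 33 of the 39 genes were found in the RefSeq table, and those of Rb1cc1, Pik3c3, Becn1, Atg12, Atg16l1 and Map1lc3a were not used. The motifs searched on both strands were the E-box core CACGTG, the ATF4 element TGATGNAA and the antioxidant response element TGACNNNGC, which do not overlap in the windows shown. The E-box core occurred in 4 of 33 genes (12.1%), namely Atg14, Atg3, Atg7 and Atg5, against 9.5% of 15614 measured genes with a promoter. The antioxidant response element occurred in 4 of 33 (12.1%), namely Atg13, Ulk2, Vmp1 and Map1lc3b, against 15.2%, and the ATF4 element in 0 of 33, against 3.62%. A match is a description of the letters in these windows alone.

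Of the cargo receptors, Sqstm1, whose product p62 links ubiquitin-marked cargo to LC3 and also binds KEAP1, read 10.90, 11.15 and 11.16 on the transgenic arrays, against 10.62, 10.61 and 10.52 on the controls. All transgenic values were higher, with transgenic replicate 1 nearest to the controls. Sqstm1 rose by 0.48 (SE 0.101, adjusted p = 0.0316, 1.40-fold). It passed without transgenic replicate 1 (0.57, adjusted p = 0.00115) but not with any other array left out (up to 0.129). Nbr1, a related receptor, read 9.44, 10.45 and 10.36 on the transgenic arrays and 10.43, 10.28 and 10.44 on the controls. Transgenic replicate 1 was low and the other transgenic arrays were close to the controls (difference -0.30, adjusted p = 0.589).

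Tfeb, the transcription factor known to drive lysosome and autophagy genes, read 7.39, 7.76 and 7.79 on the transgenic arrays and 7.80, 7.77 and 7.63 on the controls. Its difference was -0.09 (interval -0.40 to 0.23), and 0.04 without transgenic replicate 1. Its transcript level does not report its activity, which is set by its location in the cell.

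**Figure D3:**
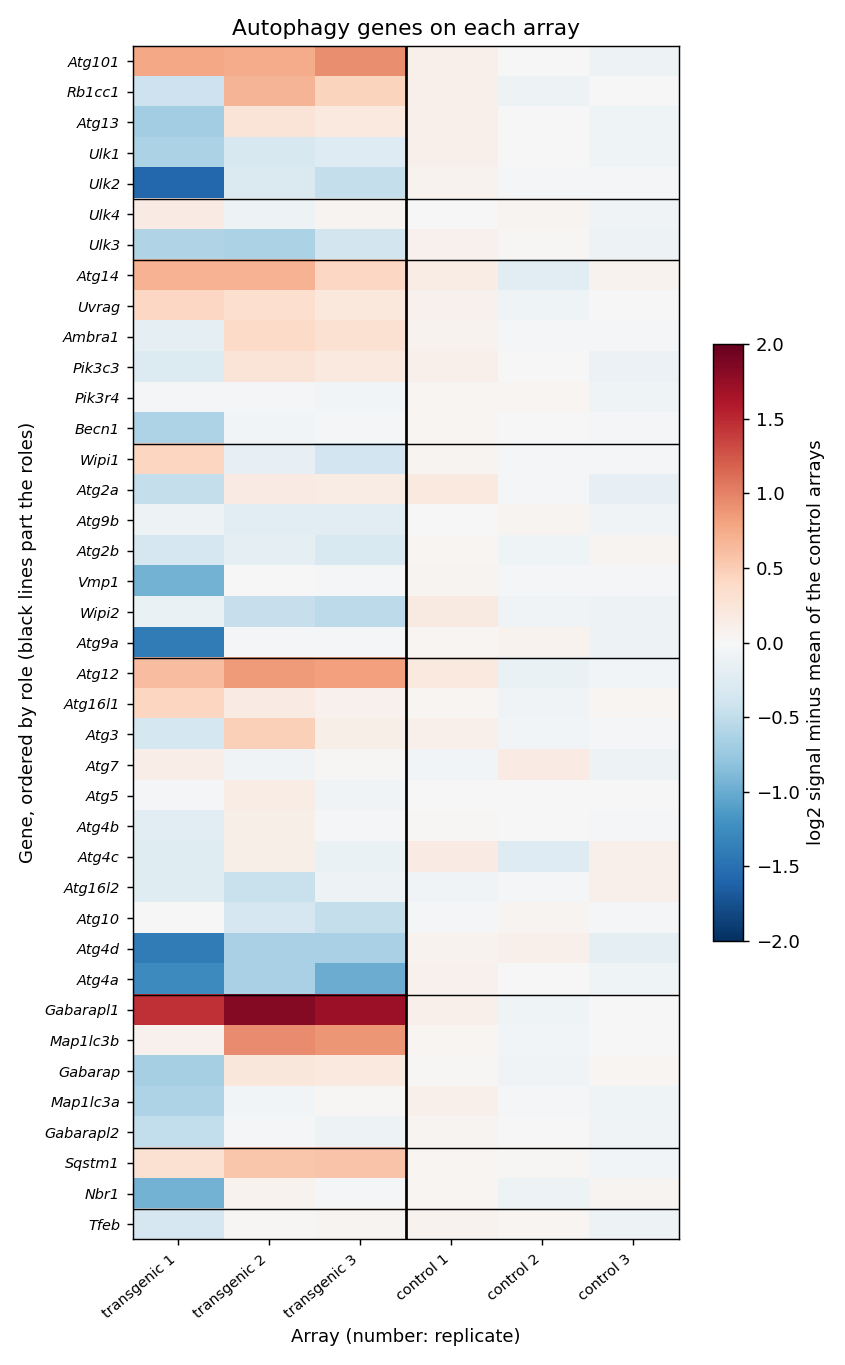
Log2 signal minus the mean of the 3 control arrays (colour, red higher and blue lower) for each of the 39 autophagy genes (rows, in the order of the roles in the text, parted by black lines) on each array (columns, transgenic replicates 1 to 3 left of control replicates 1 to 3). Atg101, Atg12, Atg14, Gabarapl1 and Sqstm1 are red on all 3 transgenic arrays, while Ulk2, Vmp1, Atg9a and Nbr1 are deeper blue on transgenic replicate 1 than on the others.

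Set against the control mean, transgenic replicate 1 and the mean of transgenic replicates 2 and 3 lay on opposite sides for 14 of the 39 genes, against 30.7% of all genes. The genes with the widest gap between them were Atg9a (1.36), Ulk2 (1.19), Rb1cc1 (0.97), Nbr1 (0.97), Vmp1 (0.93), Atg13 (0.92), Gabarap (0.87) and Map1lc3b (0.83), and in each of these replicate 1 was the lower. The median of the 39 genes relative to the control mean was -0.24 on transgenic replicate 1 and 0.02 and -0.02 on transgenic replicates 2 and 3. For the genes that rose the gap was 0.07 for Atg101, 0.14 for Atg14, 0.22 for Atg12, 0.26 for Sqstm1 and 0.31 for Gabarapl1. For those that fell it was 0.10 for Ulk3 and 0.46 for Atg4a. The test favours genes whose arrays lie close within a group, so small gaps among these genes follow in part from their selection. The 8 genes that passed only without replicate 1 were Rb1cc1, Ambra1 and Map1lc3b as higher and Ulk1, Ulk2, Wipi2, Atg10 and Atg4d as lower.

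**Figure D4:**
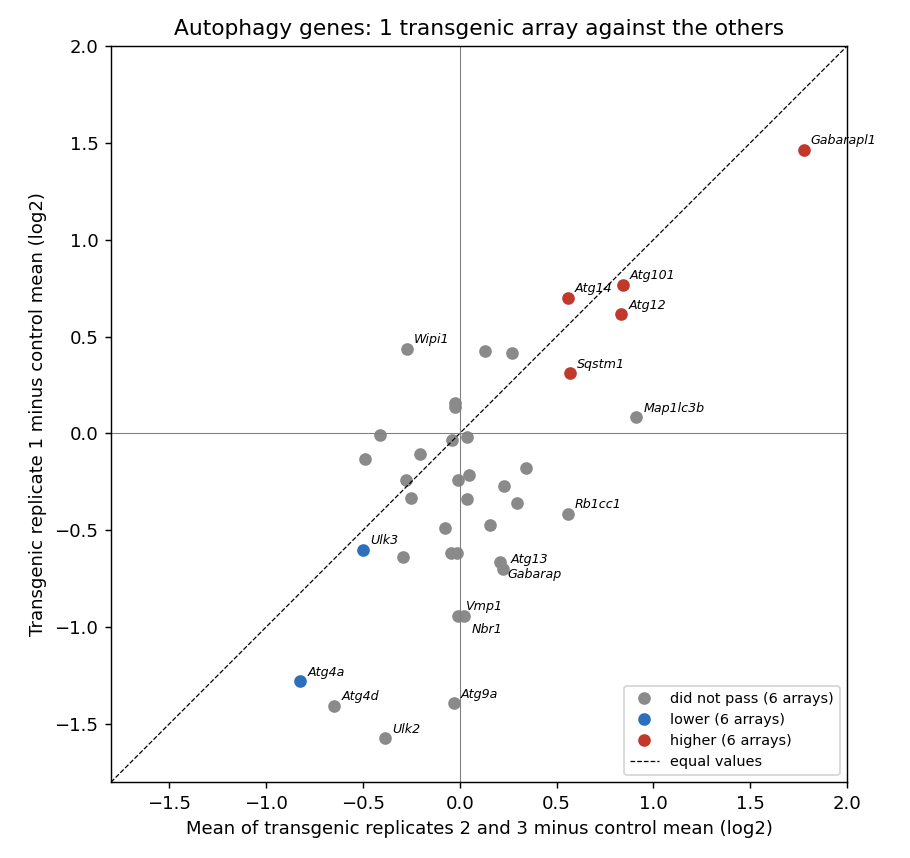
Transgenic replicate 1 minus the control mean (y axis) against the mean of transgenic replicates 2 and 3 minus the control mean (x axis), in log2 units, for the 39 autophagy genes, coloured by the call on 6 arrays. The dashed line marks equal values. The 5 genes that rose lie near the line at the upper right, and a column of genes near 0 on the x axis reaches down to -1.39 (Atg9a) on the y axis.

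Genes next to this machinery were read from lists of general knowledge. Of 25 further genes of autophagosome formation and fusion, 4 rose and 2 fell (24%, against 11.9% of all genes); their median difference was -0.03. The vacuolar sorting genes Vps11 and Vps33a, whose products are core subunits of the HOPS and CORVET tethering complexes of lysosomes and endosomes, rose by 1.23 (SE 0.119, adjusted p = 0.00333) and 0.79 (SE 0.0782, adjusted p = 0.00362). Wdr45b, a relative of the WIPI proteins, rose by 1.05 (SE 0.132, adjusted p = 0.00674). These 3 passed with each array left out. Trp53inp1, which binds ATG8 proteins, rose by 0.60 (adjusted p = 0.0474), whereas the HOPS subunit Vps41 fell by 0.74 (adjusted p = 0.0163) and Rubcn, whose product Rubicon restrains autophagosome maturation, fell by 0.52 (adjusted p = 0.0313). Dropping any control ended the call of Vps41 (up to 0.0866), and for Rubcn so did dropping transgenic replicate 2 (up to 0.139). Trp53inp1 did not pass when transgenic replicate 2 or 3, or control replicate 1 or 2, was dropped (up to 0.185). Without transgenic replicate 1, 10 of the 25 passed as higher and 2 as lower (48%, against 28.6% of all genes).

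Among 16 further cargo receptors 1 rose and 1 fell (12.5%, against 11.9% of all genes), and without transgenic replicate 1 the counts were 6 higher and 2 lower (50%, against 28.6%). Fundc1, a receptor for mitochondria, rose by 0.65 (SE 0.0899, adjusted p = 0.00881), and Tex264, a receptor for the endoplasmic reticulum, fell by 0.65 (SE 0.11, adjusted p = 0.0166). The call of Fundc1 ended on dropping control replicate 1 or 3 (up to 0.0592), and that of Tex264 on dropping any control (up to 0.0872). Bcl2l13, Sec62, Calcoco1 and Tax1bp1 differed by 0.67, 0.26, -0.38 and 0.28 and did not pass. Bcl2l13 (0.46, adjusted p = 0.00562) and Tax1bp1 (0.41, adjusted p = 0.0197) passed as higher without transgenic replicate 1.

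In the lysosome list 7 of 30 genes were higher and 3 lower at an unadjusted limma p under 0.05. Between 4419 and 5176 of all 19938 genes were under that value, in either direction. After adjustment 3 of the 30 rose and 0 fell, the median difference being 0.22. The share that passed, 10%, was no higher than the 11.9% of all genes. Leaving out transgenic replicate 1 changed these counts to 17 and 1, where 14% of all genes passed as higher and 14.5% as lower. The protease gene Ctsl averaged 9.99 ± 0.29 in the transgenic group and 8.87 ± 0.10 in the control group (SD, n = 3 each), and rose by 1.12 (adjusted p = 0.00983). Gaa, the acid alpha-glucosidase that degrades glycogen in lysosomes, rose by 0.68 (adjusted p = 0.0095), and the proton pump subunit gene Atp6v1h by 0.47 (adjusted p = 0.0416). The call of Ctsl ended on dropping control replicate 2 or 3 (up to 0.0569), with differences of 1.11 and 1.08. That of Gaa ended on dropping control replicate 1 or 2 (up to 0.0593), with differences of 0.63 and 0.70. Atp6v1h passed on 5 arrays only when transgenic replicate 1 was the one dropped (otherwise up to 0.16). Npc2, Ctsz and Psap did not pass, with differences of 0.29, 0.60 and -0.32. Without transgenic replicate 1, Npc2 (0.33, adjusted p = 0.0192) and Ctsz (0.79, adjusted p = 2.75e-04) passed as higher and Psap (-0.39, adjusted p = 0.00957) as lower. Relative to the control mean, the lysosome genes had a median of -0.20 on transgenic replicate 1, whereas their median over transgenic replicates 2 and 3 was 0.36.

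Upstream, 6 of 30 kinase, nutrient sensor and transcription factor genes rose and 1 fell (23.3%, against 11.9% of all genes); the list's median difference was 0.20. Without transgenic replicate 1 these counts were 13 and 2 (50%, against 28.6% of all genes). AMPK, the energy sensor that activates ULK1, had its subunit genes Prkab1 and Prkaa1 higher by 0.72 (SE 0.0851, adjusted p = 0.00575) and 0.75 (SE 0.169, adjusted p = 0.0397). Stk11, whose product LKB1 activates AMPK, averaged 8.99 ± 0.02 in the transgenic group and 9.63 ± 0.07 in the control group, and fell by 0.63 (adjusted p = 0.00611). The mTORC1 inhibitor Ddit4 rose by 1.49 and the mTOR complex subunit Mlst8 by 1.04 (adjusted p = 0.00479 and 0.00659), and Sesn2 by 0.70 (adjusted p = 0.0316). Atf4, the transcription factor of the amino acid response, rose by 0.64 (adjusted p = 0.0348). Prkab1, Stk11, Ddit4 and Mlst8 passed with each array left out. Dropping transgenic replicate 2 or any control ended the calls of Prkaa1 and Sesn2 (up to 0.145 and 0.133), and Atf4 passed on 5 arrays only when transgenic replicate 1 was the one dropped (otherwise up to 0.122).

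The NRF2 pathway, which KEAP1 restrains and p62 can release, had 3 of 10 genes that rose and 2 that fell (50%, against 11.9% of all genes), and 4 higher and 2 lower without transgenic replicate 1 (60%, against 28.6%). The glutathione synthesis gene Gclc averaged 11.56 ± 0.20 in the transgenic group and 9.81 ± 0.09 in the control group and rose by 1.75 (SE 0.122, adjusted p = 0.00158). Hmox1, the heme oxygenase, rose by 1.00 (SE 0.109, adjusted p = 0.00468), and both passed with each array left out. Slc7a11, the cystine transporter, rose by 3.55 (SE 0.712, adjusted p = 0.028), or 2.68 without transgenic replicate 1. Keap1 fell by 0.64 (adjusted p = 0.0196) and Gclm, the partner subunit of the Gclc product, fell by 0.59 (adjusted p = 0.0319). Dropping any control ended the calls of Slc7a11 (up to 0.111) and Gclm (up to 0.138), as did dropping transgenic replicate 2 for Slc7a11 and transgenic replicate 3 for Gclm. Keap1 did not pass when transgenic replicate 2 or 3, or control replicate 1 or 2, was dropped (up to 0.0987). Nqo1 did not pass, with a difference of 0.38 (adjusted p = 0.27).

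**Figure D5:**
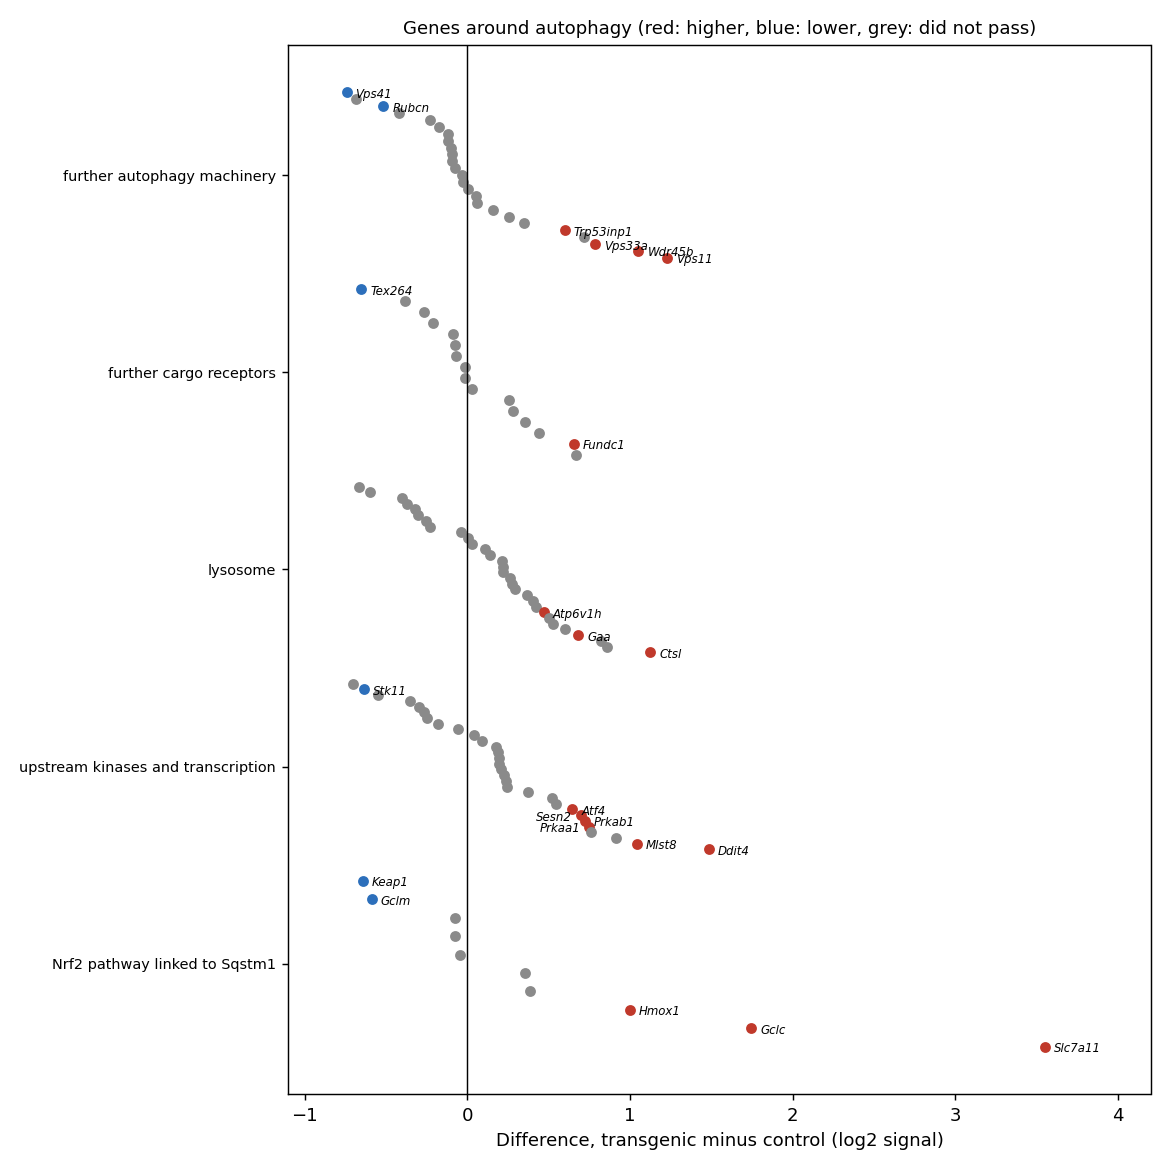
Difference in log2 signal, transgenic minus control (x axis), of each measured gene in 5 lists around the autophagy machinery (y axis, each list sorted by difference). Red points passed as higher, blue as lower, both with their names, and grey points did not pass; the points of the lysosome list range from -0.66 to 1.12.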

How the data were processed

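Total RNA (250 ng per array, per the labels' protocols) of 3 transgenic and 3 control animals was hybridised to Affymetrix Gene 1.0 ST arrays. The deposited values are log2 signals; per the submitters' processing notes the authors used RMA and Partek 6.5, and their settings are not known here. RMA aligns the arrays' distributions and compresses low signals, so a shift shared by most transcripts does not show. Array medians lay between 6.27 and 6.34 over 35399 rows. Precision is limited by having 3 arrays in each group, and there were no detection calls.

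Samples were grouped by title, as separate animals. Rows took symbols from the platform annotation (21789 rows with 1 symbol, 1621 with several, 11989 with none). All 39 autophagy genes had the same symbol in RefSeq GRCm38.p6, matched by Entrez ID. Keeping the brightest row of each gene left 19938 genes, with no filter on low signals.

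Differences came from limma 3.58.1 (R 4.3.3; lmFit, then eBayes with default settings, no block) on all 6 arrays, adjusted by Benjamini-Hochberg over all genes, with 95% confidence intervals for single differences. The code was tested on simulated data. All autophagy genes are described, and of each other list the genes that passed, filled up to 6 by smallest p. The members, lists and tests were chosen with earlier results of these data known. The alternatives covered scaling (quantile or equal medians), a filter on the dimmest 40% of genes, replicate blocks, variance trend with robust fitting, array weights, other choices of row, a threshold of 0.1, and leaving out each array.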

Additional observations from a re-analysis of the deposited data

How the results depend on the processing

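The number of autophagy genes higher in the transgenic group was 5 of 39 with 6 arrays, and also under both rescalings, the filter on dim genes and both other choices of row. The number lower was 2, and 3 with that filter, where Atg4d joined. Array weights gave 9 higher and 8 lower, with 5770 of all genes passing in place of 2368. Under trend and robust settings 3 were higher, since Sqstm1 and Atg14 did not pass, nor did Atf4, Atp6v1h, Rubcn and Trp53inp1 of the other lists. Trp53inp1 did not pass under quantile normalization (adjusted p = 0.0711). At an adjusted p under 0.1, 4 were lower. Leaving out 1 array gave 2 to 8 higher, 0 to 7 lower and 683 (without control replicate 1) to 5700 (without transgenic replicate 1) of all genes, with medians of the 39 differences between -0.16 and -0.01. The numbers in the titles were not taken as pairs, since the series text gives no pairing. Arrays with the same title number had deviations from their group means that correlated at -0.07, -0.17 and -0.12. Those with unlike title numbers correlated at -0.02 to 0.15. With 3 arrays per group such values cannot show whether arrays were paired. The replicate block on the title number gave 1 higher, 0 lower and 733 of all genes, and that on the description number, which only 2 pairs of arrays share, 7 higher, 3 lower and 4019 of all genes, with a median of 0.04.

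Gabarapl1 passed in each setting run, and Atg101 in all but the title number block (adjusted p = 0.0506). No autophagy gene that passed with 6 arrays changed sign. Signs changed only among autophagy genes that had not passed. Transgenic replicate 1 and control replicate 1 share their description number with no other array. The differences with that block therefore rest on replicates 2 and 3 of each group. With the description number block the differences were 0.27 for Atg13, 0.26 for Atg2a, 0.063 for Atg4b, 0.069 for Atg4c, -0.051 for Atg7, 0.23 for Gabarap, 0.037 for Map1lc3a, 0.044 for Nbr1, 0.074 for Tfeb, -0.020 for Ulk4 and 0.014 for Vmp1. Array weights gave 0.17 for Atg13, 0.070 for Atg2a, 0.068 for Atg4b, -0.0062 for Atg7, 0.17 for Gabarap and -0.055 for Ulk4. Equal medians gave 0.0019 for Atg4b, 0.0023 for Pik3r4 and 0.0030 for Wipi1, quantile normalization -0.026 for Atg5, and the mean of rows 0.30 for Gabarapl2. With 1 array left out the differences ranged from -0.25 to 0.23 for Atg13, -0.16 to 0.16 for Atg2a, -0.12 to 0.29 for Atg3, -0.12 to 0.050 for Atg4b, -0.043 to 0.063 for Atg5, -0.023 to 0.11 for Atg7, -0.24 to 0.21 for Gabarap, -0.48 to 0.023 for Nbr1, -0.035 to 0.23 for Pik3c3, -0.16 to 0.040 for Tfeb, -0.026 to 0.11 for Ulk4 and -0.27 to 0.14 for Wipi1. Apart from the arrays that the description number block leaves out of the difference, the cause of these changes was not tested.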
